A study of Drosophila melanogaster with 9 samples.

Results

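Very wide H3K27me3 domains of the large autosomes were described in Drosophila melanogaster larvae. A peak counted as very wide when it spanned 10 kb or more on arm 2L, 2R, 3L or 3R in any of 6 peak lists, and such peaks were merged across the lists wherever they touched. The domains were thus chosen by the measured peak widths in all 6 lists. This gave 214 domains among 15548 merged regions of the 6 arms 2L, 2R, 3L, 3R, X and 4. X held 31 domains of that width and chromosome 4 held 6. For each domain, the covered percent is the share of its length under peaks of a list, and its pieces are the separate stretches of peaks inside it.

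The material was whole larvae of the third instar, raised at 25 °C, fixed with 1% formaldehyde, with 2 immunoprecipitated libraries in each of 3 groups. The first group was roX knockout males, which carry the genotype roX1[ex6]roX2[9-4] and so lack both noncoding roX RNAs of the male dosage compensation complex. The others were wild-type females and wild-type males. The series title places the study in the role of roX RNAs in repression on autosomes. Whole larvae mix all cell types, so fewer cells with the mark and less mark per cell cannot be told apart. The genotype was taken from the labels, and peak lists hold no measure of the deletion.

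H3K27me3 is the histone mark written by Polycomb repressive complex PRC2. PRC2 is recruited at Polycomb response elements, and the mark spreads from them over silent developmental genes, where PRC1 reads it and helps to keep them off. The widest such domains in the fly lie over Hox and other clustered transcription factor genes, which most cells of a larva keep silent.

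The domains covered 8.27 Mb in all and ranged in width between 10.02 and 242 kb, with a median of 26.9 kb. Of them 53 were at least 50 kb wide, and these held 55.1% of the total length. Arms 2L, 2R, 3L and 3R carried 48, 44, 61 and 61 domains. The narrowest peaks inside the width limit were 10001 bp at CG14762, 10009 bp at CG44355 and 10015 bp near the end of 3R, and the widest outside were 9984 bp near the centromere of 3L, 9977 bp at Poxm and 9974 bp at CG32987. A very wide peak was present in all 6 lists for 83 domains and in 1 list for 36.

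The 6 lists differed in ways that bear on every value below. All deposited peaks numbered 6327 and 6189 in knockout males, 8896 and 10619 in females, and 5406 and 4784 in wild-type males. Very wide autosomal peaks took 40.7% and 38.1% of the autosomal peak length in knockout males, 32.3% and 26.9% in females, and 54.2% and 56.3% in wild-type males. The median −log10 q that the authors gave to these wide peaks was 4.42 and 3.82 in knockout males, 4.27 and 4.49 in females, and 8.83 and 9.59 in wild-type males. The wild-type male lists thus held the fewest peaks in all and, by this median, the strongest wide ones, and the part of this in the results was not tested. The lists carry no read counts, so depth is unknown, and a stretch without a peak was not detected rather than shown to lack the mark. The labels do not say that the 2 libraries of a group came from separate animals, so p-values measure only the spread between these libraries, which may be technical.

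The wide domains were gene-poor, and most listed developmental genes lay inside 70 of the 214. Of 11645 protein-coding genes of the 4 arms, 412 (3.54%) had at least 50% of their body inside a domain. That is 4.98 genes per 100 kb of domain, against 10.7 per 100 kb over the arms. In contrast, 100 of 139 listed developmental genes lay inside. These lists were assembled with earlier results of the same data in view, so their counts describe the domains and carry no test.

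All 8 Hox genes, which set segment identity, lay inside 5 domains. So did the 4 other homeobox genes of the Antennapedia complex (zen, zen2, bcd and ftz) and all 10 T-box and GATA factor genes, including pnr, srp and the Doc genes. Of the NK and Iroquois homeobox genes 12 of 13 lay inside, scro being outside. Of the eye and head genes 12 of 15 did, among them eya, so and dac of the retinal determination network. Segmentation genes followed with 18 of 23, forkhead genes with 7 of 9, appendage genes with 12 of 19 and neural fate genes with 18 of 29.

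Fewer genes of other kinds lay inside. Signalling ligands and receptors had 6 of 16, namely the Wnt genes wg, Wnt6 and Wnt10, the BMP gene dpp, hh and the neuregulin-like vn. Of 18 Polycomb and trithorax group genes, Psc and Su(z)2, which encode related PRC1 proteins, lay together in 1 domain. Of 18 housekeeping genes only Act57B lay inside, and it encodes a muscle actin. Over all 139 listed developmental genes, inside or outside a domain, 102 and 96 had at least 50% of the body under peaks in knockout males, 106 and 112 in females, and 118 and 119 in wild-type males.

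The same domains were far more broken up in knockout males and in females than in wild-type males. The median covered percent of the 214 domains was 82.1% and 75.1% in knockout males, 78.9% and 78.4% in females, and 98.1% and 98.3% in wild-type males. The domains held 863 and 1068 pieces in knockout males, 1043 and 1079 in females, and 343 and 342 in wild-type males. A domain was a single piece in 50 and 38 cases in knockout males, in 25 and 28 cases in females, and in 129 and 140 cases in wild-type males. These widths chose the domains, so the values are given as a description with no test.

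**Figure D1:**
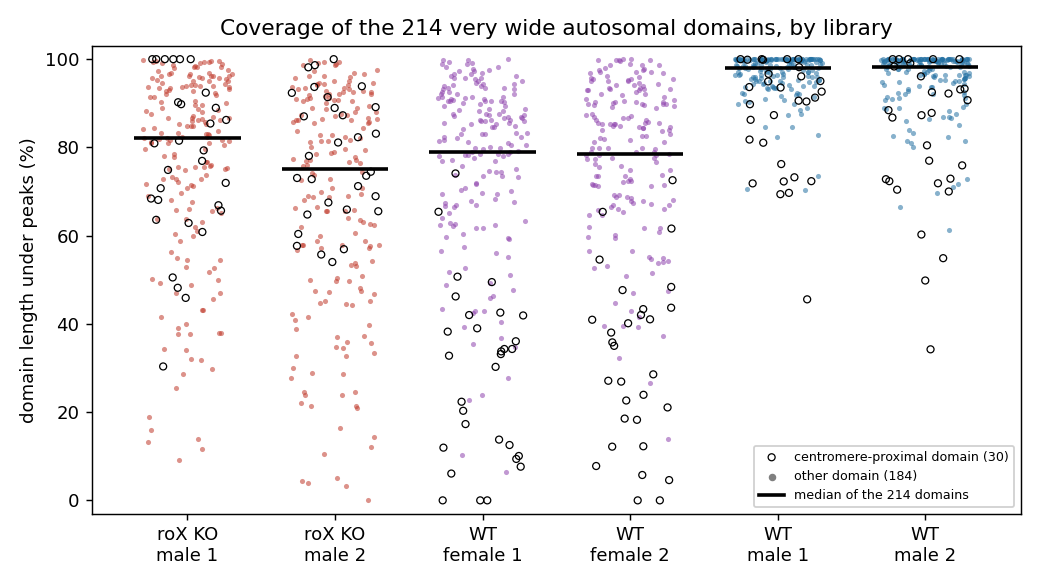
Each point is 1 of the 214 domains, with the percent of its length under peaks on the vertical axis and the 6 libraries on the horizontal axis; open circles are the 30 centromere-proximal domains and bars are medians. Medians lie at 75.1% to 82.1% in knockout male and female libraries and at 98.1% and 98.3% in wild-type male libraries, and open circles gather at the bottom in the female libraries alone.

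Most of the breaks were short. The median gap between pieces was 1256 and 1162 bp in knockout males, 1225 and 1176 bp in females, and 976 and 1172 bp in wild-type males. Gaps of at most 1 kb made up 20.2% and 35.4% in knockout males, 23.1% and 26.6% in females, and 54.3% and 16.4% in wild-type males. How near peaks were joined when the lists were made is not given in the sources used here. Gap lengths and piece counts may depend on it. Stretches covered in both wild-type male lists and in neither knockout list numbered 868 and summed to 767 kb, with a median of 852 bp and a longest of 5.07 kb. The opposite stretches, covered in both knockout lists and in neither wild-type male list, numbered 26 and summed to 13.0 kb. Of the 767 kb, 42.4% lay in bodies of protein-coding genes, close to the 41.1% over all domain bases. For females, stretches covered in both wild-type male lists and in neither female list numbered 969 and summed to 971 kb, 32.1% of it in gene bodies, and the opposite stretches summed to 8.69 kb.

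Coverage was lower at the edges of the domains than in their middle in every library. Each border was set by the list that reached furthest, so merging across lists itself lowers coverage at the edges. In the outermost 5% of the width at the left end it averaged 56.4% and 46.0% in knockout males, 53.7% and 54.1% in females, and 85.4% and 82.4% in wild-type males. In the middle of the domains the knockout and female libraries also stayed below the wild-type male libraries. A very wide peak of a wild-type male list lay in 205 domains, of a knockout list in 137 and of a female list in 124. The width rule thus bears on the middle as well.

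**Figure D2:**
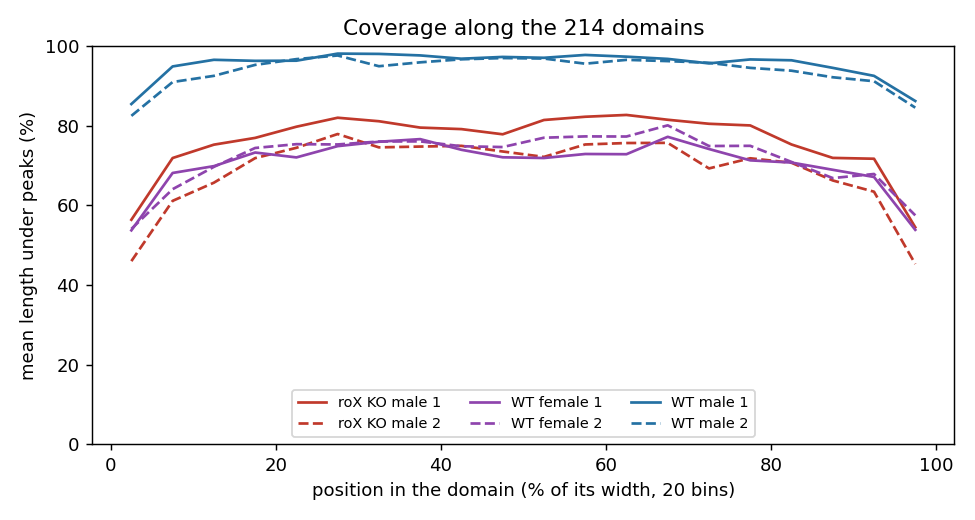
Mean percent of length under peaks (vertical axis) is drawn along the width of the 214 domains in 20 bins (horizontal axis, in percent of the width), with 1 line per library. All lines dip at both ends, where the merging across lists set the borders, and the wild-type male lines lie above the other 4 in every bin.

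Wider domains held more pieces. Domains of at least 50 kb had a median of 6.5 pieces in knockout males, 7.5 in females and 1.0 in wild-type males (group means of 2 libraries). Their median covered percent was 88.1% in knockout males, 88.04% in females and 99.0% in wild-type males. The 81 domains under 20 kb were at medians of 66.5% in knockout males, 61.2% in females and 91.9% in wild-type males. They were thus less covered than those of at least 50 kb in every group. Domains very wide in 1 list had a median width of 11.9 kb, against 51.3 kb for those very wide in all 6. The width rule therefore bears on this contrast. Of the 214 domains, 205 were very wide in at least 1 wild-type male list.

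**Figure D3:**
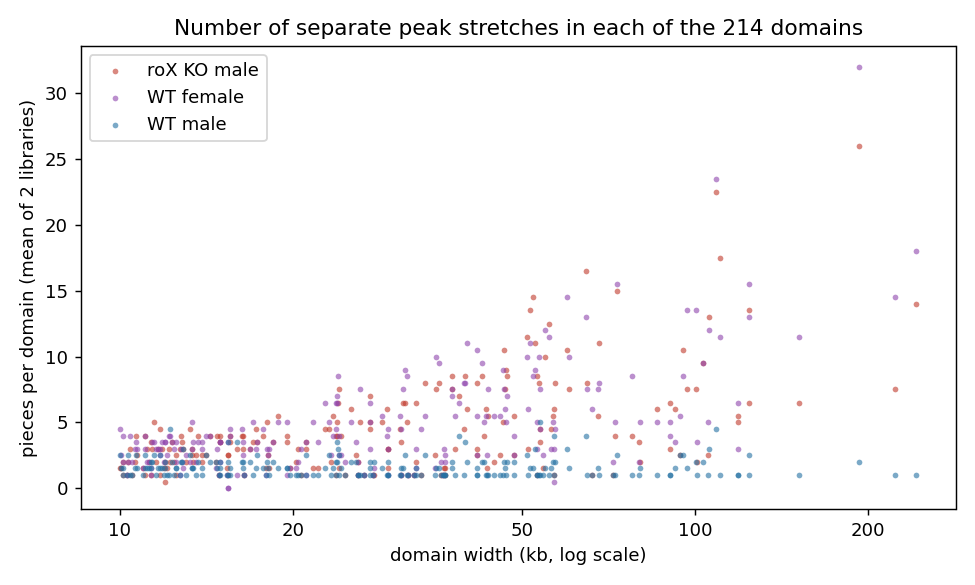
Each domain is plotted by its width in kb (horizontal log axis) and by its number of pieces, as the mean of 2 libraries per group (vertical axis). Wild-type male points lie at 5 pieces or fewer at all widths, while knockout male and female points climb to 26.0 and 32.0 pieces at the domain of salr and salm.

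The widest domain lay in the Antennapedia complex and held the Hox genes Scr and Antp and the pair-rule gene ftz (dm6 3R, 6822700 to 7064664, 242 kb). It was covered over 93.7% and 91.2% in knockout males, 90.1% and 89.7% in females, and 99.7% and 100% in wild-type males. Wild-type male peaks spanned it in 1 piece each, whereas knockout males had 9 and 19 pieces and both female libraries had 18. The next widest held abd-A and Abd-B of the bithorax complex (3R, 16762507 to 16984847, 222 kb). It was covered over 96.2% and 94.4% in knockout males, 91.2% and 90.3% in females, and 100% in both wild-type male lists. At both Hox domains coverage was therefore at least 89.7% in every library. Neighbouring domains of the same complexes held lab, then pb with zen2, zen, bcd and Dfd, and Ubx, and the Ubx domain was covered over 98.7% and 97.2% in knockout males, 95.8% and 93.0% in females, and 99.9% and 99.2% in wild-type males.

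Breaks were most numerous at the paired spalt zinc finger genes salr and salm (2L, 11284486 to 11477544, 193 kb). There were 23 and 29 pieces in knockout males, 31 and 33 in females, and 1 and 3 in wild-type males. Coverage was 84.2% and 76.9% in knockout males, 78.9% and 78.2% in females, and 100% and 98.8% in wild-type males. The domain of sr, which encodes a zinc finger factor of tendon cells (3R, 18051883 to 18160465, 109 kb), came next by the difference in pieces between knockout and wild-type males. It was covered over 71.2% and 58.7% in knockout males, 61.8% and 65.4% in females, and 95.8% and 94.5% in wild-type males, and it was the only one of the 10 widest without a very wide peak in a female list. SoxN, a Sox factor of the nervous system (2L, 8777732 to 8888394, 111 kb), had 18 and 17 pieces in knockout males, 11 and 12 in females, and 1 in each wild-type male list.

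At the others of the 10 widest domains coverage was at least 81.8% in every library. At ems, a head gap homeobox gene (3R, 13840435 to 13959020), a single female peak of 118 kb spanned the domain, and coverage was 96.2% and 93.3% in knockout males, 99.8% and 95.7% in females, and 99.6% in both wild-type male lists. The T-box pair H15 and mid (2L, 5366344 to 5517928) was at 96.3% and 93.6% in knockout males, 91.4% and 90.2% in females, and 100% and 99.6% in wild-type males. The segment polarity pair inv and en (2R, 11461277 to 11579907) was at 90.2% and 92.1% in knockout males, 93.6% and 93.1% in females, and 99.0% and 100% in wild-type males. All 3 of these loci stayed above 90% in every library. The POU pair nub and pdm2 (2L, 12566151 to 12690106) was at 93.5% and 92.5% in knockout males, 85.2% and 81.8% in females, and 99.6% and 100% in wild-type males. The domain of Psc and Su(z)2 (2R, 12941363 to 13065492) was at 86.6% and 82.7% in knockout males, 84.5% and 87.0% in females, and 98.7% and 98.3% in wild-type males. Both wild-type male libraries lay above the other 4 in 9 of the 10 widest domains, and at ems 1 female library was the highest.

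Some domains were intact everywhere. Of the 214, 29 were covered over at least 90% in all 6 lists, and 10 were 1 piece in all 6. Those 10 included the homeobox genes so, eve and C15, the forkhead gene bin and the zinc finger gene erm. Dll, the homeobox gene of distal limbs (2R, 24797810 to 24869725), was covered over 99.1% and 99.3% in knockout males, 97.4% and 97.6% in females, and 100% and 99.9% in wild-type males.

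The homeobox gene hth, whose product is a partner of Hox proteins, stood in a run of 7 domains (3R, 10438167 to 10674633, 236 kb). Over the whole run peaks covered 50.7% and 43.5% in knockout males, 71.2% and 67.3% in females, and 94.3% and 94.6% in wild-type males. The 3 groups did not overlap, and knockout males were lowest. All 7 domains were very wide in a wild-type male list, and only the one at the right end was in a knockout list. The width rule therefore bears on this order, and the run was named after its values were seen. Inside the gene, 1 domain (3R, 10596797 to 10608800) was covered over 9.09% and 0% in knockout males, 42.9% and 42.8% in females, and 100% and 81.5% in wild-type males. The domain at the right end of the run (3R, 10609794 to 10674633) was at 82.1% and 76.4% in knockout males, 85.4% and 81.6% in females, and 99.7% and 99.9% in wild-type males. The domain inside the gene entered through 1 wild-type male list alone, whereas the one at the right end, which reaches outside the gene, was very wide in all 6 lists, so the choice of domains bears on the contrast between them. Over the whole body of hth (3R, 10507561 to 10639568), which the width rule did not delimit, coverage was 40.4% and 32.8% in knockout males, 60.6% and 58.9% in females, and 91.7% and 92.1% in wild-type males. The domain at the left end of the gene, reaching outside it (3R, 10456461 to 10508715), was among the 5 with the largest difference in pieces, with 14 and 15 in knockout males, 7 and 10 in females, and 2 and 1 in wild-type males.

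**Figure D4:**
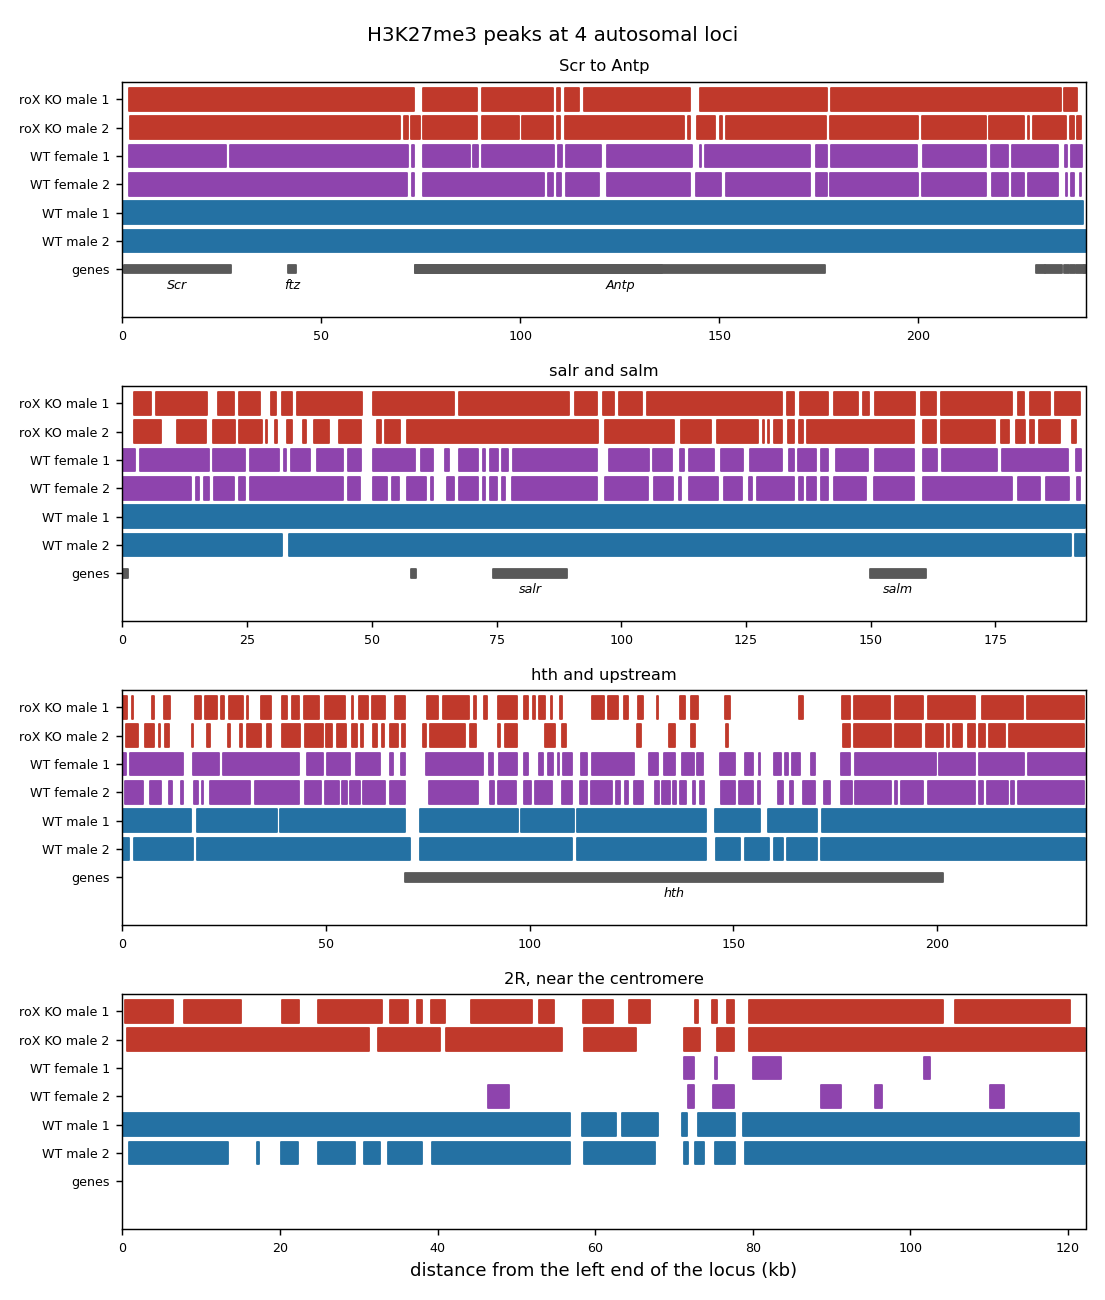
Bars mark peaks of each library along 4 loci, with the distance from the left end of the locus in kb on the horizontal axis, 1 row per library and protein-coding genes in grey (none lies in the locus near the centromere of 2R). Wild-type male peaks cover at least 94.3% of the first 3 loci, knockout male peaks are missing over much of hth, and female peaks cover 4.78% and 9.29% of the locus near the centromere of 2R.

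A class of 30 domains near the centromeres had lower coverage in females than in both male groups. They lay beyond 22 Mb on 2L and 23 Mb on 3L and below 5 Mb on 2R and 4 Mb on 3R, limits that were chosen after the values were seen, and 27 of them touched no protein-coding gene. Their median covered percent was 78.1% and 76.3% in knockout males, 33.0% and 31.8% in females, and 90.9% and 87.6% in wild-type males. Of the 30, 17 were very wide in a knockout list, 23 in a wild-type male list and 2 in a female list. The width rule itself therefore bears on the low female medians. At the start of 2R, before DIP-lambda, a pair of domains (2R, 167880 to 290101) was covered over 70.2% and 87.4% in knockout males, 4.78% and 9.29% in females, and 92.8% and 81.7% in wild-type males. The females stood far below both male groups there. Near-identical repeats are common next to centromeres, and how reads with several matches were counted is not given in the sources used here, so the values of these domains are uncertain.

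The other 184 domains were split by gene content. A gene of any list lay in 70. They include the domain of Psc and Su(z)2, while the domain of the appendage gene tio counted as centromere-proximal. They are thus not the same 70 as those with developmental genes. Their medians were 92.7% and 86.9% in knockout males, 88.04% and 87.4% in females, and 98.8% and 99.2% in wild-type males. The 71 with other genes were at 77.9% and 68.8% in knockout males, 79.7% and 78.3% in females, and 98.4% and 98.6% in wild-type males. The 43 with no gene at least 50% inside were at 60.5% and 46.8% in knockout males, 67.1% and 71.4% in females, and 97.5% and 97.3% in wild-type males. All 43 of the last class entered through a wild-type male list, while 11 were very wide in a knockout list and 19 in a female list. Of the 70 with a listed gene, 66 were very wide in a knockout list and 62 in a female list, so the rule itself bears on these medians. Domains with listed genes were also wider, with a median of 47.7 kb, against 27.2 kb and 17.1 kb in the other classes.

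Domains that were very wide in the lists of 1 group alone numbered 7 in knockout males, 2 in females and 56 in wild-type males. Each entered through that group alone, so the rule itself bears on the high values of that group. The 3 widest of the knockout males lay next to the centromeres of 2L and 3L. One of them, between CG42598 and CG40228 (3L, 26936963 to 26952362), was covered over 100% and 91.4% in knockout males, 0% in both female lists, and 69.7% and 71.9% in wild-type males. The others, also on 2L and 3L, each reached 10 kb in 1 knockout library only (2L, 23111148 to 23126576 and 3L, 26064551 to 26077360). Those of the females lay at Rgk2, a small GTPase gene (2R, 18539928 to 18552806), and at Ets21C, an ETS transcription factor gene (2L, 544986 to 556315). Rgk2 was covered over 49.4% and 21.0% in knockout males, 100% and 93.2% in females, and 82.9% and 80.04% in wild-type males. Ets21C was at 52.8% and 57.6% in knockout males, 92.1% and 99.7% in females, and 92.3% and 85.1% in wild-type males. At both genes, which entered through female lists alone, the knockout libraries were the lowest. The widest of the wild-type males lay at the cuticle gene Cpr35B (2L, 14409176 to 14460783), with 56.3% and 39.8% in knockout males, 59.3% and 64.7% in females, and 96.2% and 99.9% in wild-type males. The next, at ms(2)35Ci (2L, 15281795 to 15305706) and CG31612 (2L, 21770475 to 21794370), were at 41.6% to 76.8% in knockout males, 49.2% to 54.3% in females and 87.6% to 95.4% in wild-type males.

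To test group differences on regions that the compared lists did not choose, each pair of groups was compared on merged peaks of the group left out. A region was very wide when it held a peak of 10 kb or more of that left-out group. The limma test of the covered percent was run over all regions with a mean of at least 5% that varied, and a region was called at an adjusted p below 0.05 (Benjamini-Hochberg over all regions tested). The comparisons with wild-type males share the same wild-type male libraries.

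Knockout and wild-type males were compared to ask whether loss of the roX RNAs goes with a change of the mark in wide autosomal regions. Of 195 very wide autosomal regions of the female lists, 175 entered the test. The mean was lower in knockout than in wild-type males in 173 of them, beside 3273 of all 4840 regions tested. By limma 8 regions (4.57%) passed as lower in knockout males and 0 passed as higher, beside 6.67% lower and 0.868% higher over all 4840 regions tested. At an unadjusted p below 0.05 by limma, 57 were lower and 0 higher, beside 884 lower and 131 higher of all 4840 regions. The wild-type male lists were at exactly 100% in 137 and 133 of the 195 regions, where knockout males could not be higher. The balance of lower over higher was thus partly set in advance. All knockout libraries were below all wild-type male libraries in 126 of the 175 (72.0%), beside 34.5% of all regions, and above them in 1, beside 6.63%. The median difference was -6.13 percentage points in wide autosomal regions and -14.8 points over all regions. The called share was thus below the background, while the share without overlap was above it. The latter does not show an excess in wide regions. Regions that did not vary were left out of the 175. Where both wild-type male lists were at 100%, any gap below that in both knockout lists counted as no overlap. Small gaps counted elsewhere too, as at Ugt36A1, with 93.2% in both knockout lists against 93.4% and 93.6% in wild-type males.

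The 8 called regions included a stretch holding CG33958 (2R, 18187303 to 18205796), at 25.1% and 28.1% in knockout males, against 91.7% and 90.9% in wild-type males (difference -64.7 points, SE 5.56, limma adjusted p = 0.0313). Its limma adjusted p was 0.0506 on the arcsine scale and 0.435 with peaks of −log10 q of at least 3. The stretch between the POU factor gene vvl and Prat2 (3L, 6836447 to 6847316) was at 42.0% and 34.8% in knockout males, against 100% in both wild-type male lists (difference -61.6 points, SE 4.98, limma adjusted p = 0.0286, and 0.0505 with lists of equal total length). A stretch inside the tyrosine phosphatase gene Ptp61F (3L, 1451329 to 1463561) was at 45.5% and 42.4% in knockout males, against 100% and 90.5% in wild-type males (difference -51.3 points, SE 5.74, limma adjusted p = 0.0467, and up to 0.435 under other peak settings). In each, both knockout libraries lay far below both wild-type male libraries. A stretch inside hth (3R, 10512677 to 10526717) was at 67.4% and 73.3% in knockout males, against 100% in both wild-type male lists (difference -29.7 points, SE 3.25, limma adjusted p = 0.0449, and 0.0853 without the variance trend). The others called were CG32987, the BTB factor gene lov, the stretch between RFeSP and the BTB zinc finger gene chinmo, and 1 near the centromere of 3L.

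Other large differences did not pass. The region of CG9173 inside Ptp61F (3L, 1407125 to 1424569) was at 36.1% and 17.4% in knockout males, against 94.3% and 99.9% in wild-type males (difference -70.3 points, SE 9.50, limma adjusted p = 0.0629). Another hth stretch (3R, 10553142 to 10565898) was at 58.3% and 7.78% in knockout males, against 100% in both wild-type male lists (limma adjusted p = 0.254). The remaining named regions, at ru, a rhomboid-family protease gene, at Dnaaf5, next to the Notch ligand gene Ser and upstream of hth, differed by -66.2 to -60.9 points with limma adjusted p between 0.0507 and 0.0948. The single region without overlap in the other direction, between CG8517 and Or56a (2R, 19729861 to 19766251), was at 99.5% and 99.8% in knockout males, against 99.03% and 98.9% in wild-type males.

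Summed by library, the median covered percent of the 195 regions was 96.2% and 92.2% in knockout males, against 100% in both wild-type male lists (exact permutation p = 0.333, two-sided, the smallest that 2 libraries against 2 allow). The mean number of pieces was 1.93 and 2.48 in knockout males, against 1.12 and 1.11 in wild-type males (exact permutation p = 0.333). On X the 39 very wide regions of the female lists were at medians of 35.3% and 17.1% in knockout males, against 97.0% and 99.7% in wild-type males, and limma called 18 of them lower. The autosomal median exceeded the X median by 60.9 and 75.0 points in knockout males, against 2.97 and 0.295 points in wild-type males. That gap of 57.9 points was larger than the 14.2 points between libraries of a group (exact permutation p = 0.333). The count of 8 called regions rested on single libraries, being 116 when knockout replicate 1 was left out, 90 when knockout replicate 2 was, and 0 when either of the wild-type male libraries was. It was 0 with a replicate block, 3 to 18 under other settings of the test and the peaks, and 17 and 1 at width limits of 5 and 20 kb.

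The comparison of females with wild-type males described the sexes on 186 very wide autosomal regions of the knockout male lists. Of 184 tested, the mean was lower in females in 181, beside 3266 of all 5075 regions. Limma called 55 (29.9%) of the 184 lower and 0 higher, beside 13.2% lower and 3.49% higher over all regions. Without the variance trend 19 were called lower, and at width limits of 5 and 20 kb 91 and 27 were. At an unadjusted p below 0.05 by limma, 102 were lower and 0 higher, beside 1147 lower and 311 higher of all 5075 regions. The wild-type male lists were at exactly 100% in 143 and 139 of the 186 regions, where females could not be higher. Where both were at 100%, any gap below that in both female lists counted as no overlap. Both female libraries were below both wild-type male libraries in 161 regions (87.5%), beside 38.3% of all regions, and above them in 1, beside 12.0%. The median difference was -8.01 points, beside -15.0 points over all regions.

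The largest differences lay near the centromeres. Of 18 centromere-proximal regions 9 were called lower, with a median difference of -47.1 points. Of 1366 narrower centromere-proximal regions 283 were called lower, with a median of -44.4 points, and all 4 very wide regions of chromosome 4 were, with a median of -56.3 points. On X 0 of 4 were called by limma, with a median of 3.28 points, and 1 was lower at an unadjusted p below 0.05. On 2R before DIP-lambda, 1 of them (2R, 247407 to 290101) was at 10.2% and 12.5% in females, against 98.1% and 99.7% in wild-type males (difference -87.6 points, SE 3.55, limma adjusted p = 0.00626). The neighbouring region (2R, 208923 to 223634) was at 0% and 17.8% in females, against 100% in both wild-type male lists (limma adjusted p = 0.0211). Another stretch of this locus (2R, 168189 to 208859), at 0% in both female lists, against 100% and 68.6% in wild-type males, did not pass (limma adjusted p = 0.0637). On 3L, regions between eIF4B and l(3)80Fj and between CG42598 and CG40228 were called lower by -70.9 to -51.2 points, with limma adjusted p between 0.0162 and 0.0430, while a difference of -50.5 points between l(3)80Fg and CG40160 did not pass (limma adjusted p = 0.194). The single region without overlap in the other direction was again the one between CG8517 and Or56a, at 99.04% and 99.9% in females, against 99.03% and 98.9% in wild-type males.

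Away from the centromeres 46 of 166 regions were called lower. A listed gene lay in 22 of the 46 (47.8%), beside 69 of all 166 (41.6%). For knockout against wild-type males it lay in 0 of 7 called lower, beside 56 of 174 (32.2%). For females against knockout males it lay in 3 of 5 lower and 0 of 6 higher, beside 71 of 185 (38.4%). Of the 46 differences, the largest lay at the gap gene Kr and the neighbouring CG9380 (2R, 25214893 to 25228865), at 35.9% and 42.3% in females, against 100% in both wild-type male lists (difference -60.9 points, SE 3.51, limma adjusted p = 0.00935). The forkhead pair fd96Ca and fd96Cb (3R, 25075768 to 25097176) was at 59.5% and 59.6% in females, against 100% in both wild-type male lists (limma adjusted p = 0.00615). A stretch at the wing selector gene ap, a LIM homeobox gene (2R, 5707786 to 5721159), was at 64.4% in both female lists, against 100% in both wild-type male lists (limma adjusted p = 0.00655). At all 3 loci both female libraries lay below both wild-type male libraries. Smaller differences were called at Abd-B (-10.3 points), at wg with Wnt6 (-11.0 points) and at opa (-7.92 points), with limma adjusted p of 0.0259, 0.0233 and 0.0498, but none of these 3 passed without the variance trend (limma adjusted p of 0.189, 0.168 and 0.286).

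Summed by library, the median covered percent of the 186 regions was 91.8% and 91.3% in females, against 100% in both wild-type male lists (exact permutation p = 0.333). The mean number of pieces was 2.62 and 2.78 in females, against 1.14 and 1.21 in wild-type males (exact permutation p = 0.333). Leaving out female replicate 1 or 2 moved the count of 55 to 139 or 146, and leaving out wild-type male replicate 1 or 2 moved it to 18 or 32.

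Females and knockout males were compared directly on the 209 very wide autosomal regions of the wild-type male lists. Limma called 16 (7.66%) lower and 6 (2.87%) higher in females, beside 7.69% lower and 7.27% higher over all 4330 regions. Both female libraries were below both knockout libraries in 64, beside 24.9% of all regions, and above them in 70, beside 24.0%. The median difference was 1.10 points. By library the median was 79.9% and 79.0% in females, against 81.9% and 74.5% in knockout males, and the groups overlapped (exact permutation p = 1.00). The mean number of pieces was 5.03 and 5.21 in females, against 4.20 and 5.15 in knockout males (exact permutation p = 0.667). This overlap does not show that the groups are alike.

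These called shares were at or below those over all regions, and the calls are given here by position on the arm. Of the 24 centromere-proximal regions 11 were called lower and 0 higher in females, and all 24 had the lower mean there. Their median was 33.5% and 33.7% in females, against 71.1% and 73.3% in knockout males. Narrower regions of the same parts of the arms went the same way, with 248 of 1280 called lower and 8 higher, so the low female values there were not limited to very wide regions. Of 6 very wide regions on chromosome 4, 3 were called lower, with a median of -37.2 points. The largest called decrease (2R, 246652 to 289987) was at 10.1% and 12.3% in females, against 90.5% and 98.1% in knockout males (difference -83.1 points, SE 4.24, limma adjusted p = 0.00603, and 0.129 with peaks of −log10 q of at least 3). The larger neighbouring region (2R, 167880 to 224706) was at 0% and 4.60% in females, against 66.9% and 93.7% in knockout males, and missed the threshold (limma adjusted p = 0.0576). The 4 next largest called differences of this class, on 2L and 3L, were -73.6 to -57.9 points, with limma adjusted p between 0.00773 and 0.0444.

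Away from the centromeres 5 regions (2.70%) were called lower and 6 (3.24%) higher in females, of 185. Both shares lay below the 7.69% and 7.27% over all regions, so the regions below are single loci and not a result about wide domains. Lower was the interval between Pld and jing, a zinc finger gene (2R, 6392584 to 6410707), at 10.3% and 14.0% in females, against 86.7% and 82.9% in knockout males (difference -72.6 points, SE 3.78, limma adjusted p = 0.00633). Also lower were fd96Ca with fd96Cb (3R, 25075595 to 25097225), at 59.4% and 59.6% in females, against 93.9% and 95.1% in knockout males (limma adjusted p = 0.00702), and ap (2R, 5706756 to 5753085), at 56.0% and 56.4% in females, against 85.8% and 84.3% in knockout males (limma adjusted p = 0.0113, and 0.430 with peaks of −log10 q of at least 3). The retinal and leg gene dac (-15.4 points) and the stretch between laf and Gnf1 (-21.9 points) completed the lower ones, and neither passed without the variance trend (limma adjusted p of 0.141 and 0.0749). The Kr region (2R, 25194281 to 25229835) was at 22.7% and 26.6% in females, against 68.8% and 57.7% in knockout males, and missed the threshold (limma adjusted p = 0.0607).

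Higher in females was CG33958 (2R, 18187610 to 18206041), at 80.4% and 85.3% in females, against 25.1% and 28.2% in knockout males (difference 56.1 points, SE 3.43, limma adjusted p = 0.00888). The region of rho, the protease that releases EGF receptor ligands (3L, 1443373 to 1467457), was at 81.6% and 77.6% in females, against 37.6% and 33.3% in knockout males (difference 44.1 points, SE 3.36, limma adjusted p = 0.0143). With peaks of −log10 q of at least 3 the direction turned, to -0.550 points (limma adjusted p = 0.968). CG9173, which like rho lies within Ptp61F (3L, 1403077 to 1424543), was at 84.9% and 78.8% in females, against 31.5% and 14.2% in knockout males (limma adjusted p = 0.0457, and 0.0642 on the arcsine scale). Ptp61F thus held both of these called regions. A stretch in hth (3R, 10511138 to 10548951) was at 67.1% and 68.5% in females, against 49.9% and 48.1% in knockout males (difference 18.8 points, SE 2.41, limma adjusted p = 0.0401, and 0.104 without the variance trend). The FOG-family gene ush (30.1 points) and Ir48b, an ionotropic receptor gene (39.0 points), completed the higher ones. Their limma adjusted p was 0.0667 at ush without the variance trend and 0.0788 at Ir48b with lists of equal total length. Other large differences, between Dip-B and tal-1A, next to Ser, between fj and Ote, at ru and between CG43336 and pxb, were 43.6 to 61.1 points with limma adjusted p between 0.0947 and 0.312.

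On X, 21 of 28 very wide regions of the wild-type male lists were called higher in females and 0 lower. The autosomal median minus the X median was -12.2 and -12.5 points in females, against 47.6 and 56.6 points in knockout males, a gap larger than the spread within either group (exact permutation p = 0.333). The count of 6 regions higher in females became 17 when knockout replicate 1 was left out, 1 when either female library was, and 3 when wild-type male replicate 1 was.

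**Figure D5:**
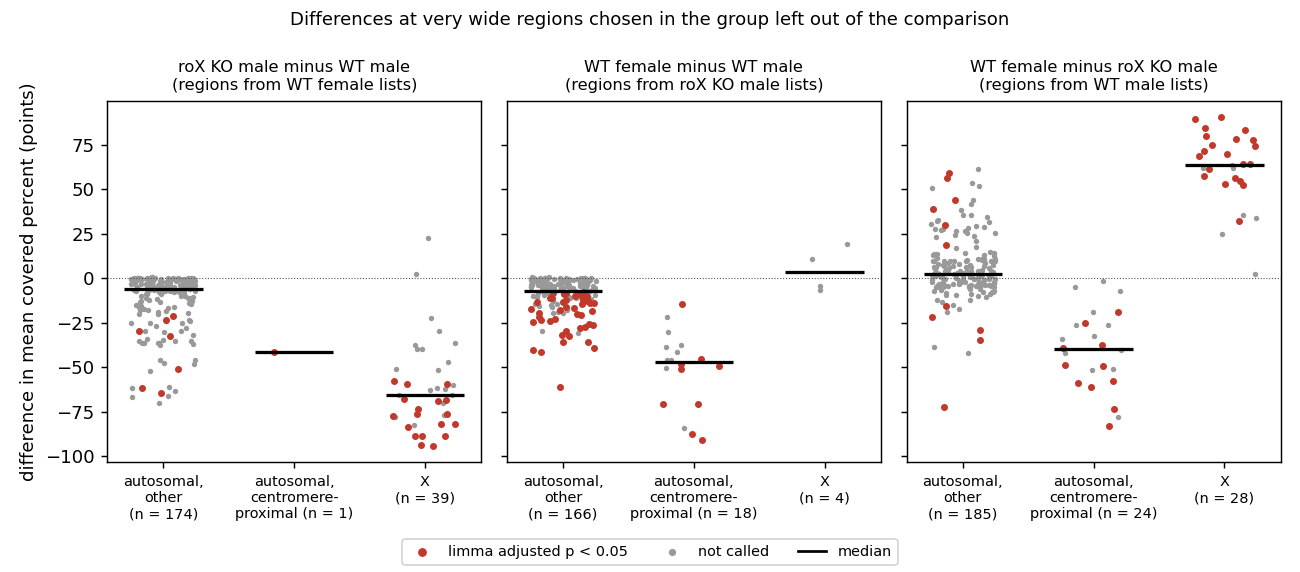
Points are very wide regions chosen in the group left out, and the vertical axis is the difference in mean covered percent between the groups named above each panel, in percentage points; bars are medians and red points passed limma at an adjusted p below 0.05. Medians away from the centromeres are -6.05, -6.99 and 2.32 points in the 3 panels, and centromere-proximal medians are -47.1 points for females minus wild-type males and -39.7 points for females minus knockout males.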

How the data were processed

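The data were broad peak lists for H3K27me3 from 6 libraries; the 3 inputs were not used here. Per the submitters' processing notes, the build was dm6 and the tools were Bowtie2 2.4.5, Trimmomatic 0.39, Picard, SAMtools 1.13 and deepTools 3.5.1. The caller of the peaks is not given in the sources used here. There is 1 list for each library, so replicates were not pooled. The deposited lists give, per peak, the authors' score, their fold enrichment (a ratio), and their −log10 q and −log10 p. They served only to describe, rank or filter peaks. No list holds read counts, so depth is unknown.

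Covered percents and pieces were computed from peak intervals with Python 3.11.15 and pandas 2.3.3. Genes came from the Release 6 RefSeq table, in which all 184 listed symbols matched. Differences were tested with limma 3.58.1 in R 4.3.3 (trend, two-sided), on regions of the group left out. The test was also tried on simulated data in which changed regions lost nearly all cover, which does not bear on smaller differences. Single values per library were tested by exact permutation in scipy 1.17.1.

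The members and gene lists were chosen with earlier results of these data known. Named domains were the 10 widest, the 5 with the largest difference in pieces, the 3 widest of 1 group alone, the 3 peaks on each side of the width limit, and in each comparison the 8 regions without overlap with the largest decrease and increase; listed genes were named as examples, and called regions, the hth run and Dll were named after their values were seen. The alternatives tried were a minimum −log10 q of 3, a minimum fold of 1.5, gaps of 1 kb joined, lists of equal total length, other width limits, no trend, an arcsine scale, no filter, a replicate block and each library left out.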

Additional observations from a re-analysis of the deposited data

How the results depend on the processing

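Of 216 alternative values of the main results, 178 were labelled the same, 34 moved and 4 reversed. Counts of regions were labelled by how far they moved from the reported count, not by direction. The exceptions follow, and their cause was not tested. Regions lower in knockout than in wild-type males (8) numbered 5 without trend, 3 on the arcsine scale, 16 with −log10 q of at least 3, 18 with lists of equal total length, 17 and 1 with width limits of 5 and 20 kb, and 0 to 116 with 1 library left out, where regions higher numbered 0 to 1. Regions lower in females than in wild-type males (55) numbered 19 without trend, 91 and 27 with limits of 5 and 20 kb, and 18 to 146 with 1 library left out; regions higher numbered 1 at 5 kb and 0 to 1 with 1 library left out. For females against knockout males, 37 and 4 were lower (16 as reported) and 13 and 3 higher (6 as reported) at limits of 5 and 20 kb, and 1 to 17 were higher with 1 library left out. The replicate block left 0 calls in every comparison, on 1 residual degree of freedom. The labels do not say that replicate numbers mark a shared batch, and same-numbered libraries deviated together with correlations of 0.117, 0.00713 and 0.0584. Females minus knockout males reversed for mean pieces (0.447) to -0.0221 with lists of equal length, with -0.0287 to 0.923 when 1 library was left out. It reversed for the median covered percent (1.29 points) to -1.10 at 5 kb, with -2.43 to 5.01 when 1 library was left out. The difference at rho (44.1 points) was -0.550 with −log10 q of at least 3. Of the 85 region calls of the 3 comparisons, 37 held without trend, 69 on the arcsine scale, 56 with gaps of 1 kb joined and 75 with lists of equal total length. With −log10 q of at least 3, 50 of 75 held. With 1 library left out, most calls held when it was a knockout or female library. Most were lost when it was a wild-type male library, the largest share without replicate 1. The domains numbered 502 and 128 at width limits of 5 and 20 kb. With 1 library left out of a group, the lone library was assumed to vary like the other group. Coverage of the 10 widest domains was also computed under peak settings that were chosen after seeing the data. Depth is unknown, so weak peaks lost by depth cannot be told apart from absent marks.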
